A study of Mus musculus with 12 samples.

Results

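The genes described here are 9 B cell identity genes, Cd79a, Cd79b, Ms4a1, Pax5, Ebf1, Cd22, Blk, Bank1 and Fcrla, taken from a table of 35275 genes measured by RNA-Seq in purified CD4+ T cells. They were chosen by name, for their place in B cells, and all 9 were found in the table by symbol. A mean of at least 0.5 FPKM over all mice was required for a test, and 8 of the 9 passed. Ebf1, with a mean of 0.288 FPKM, was described by its levels. FPKM counts a gene's sequenced fragments relative to its transcript length and to the depth of the library.

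The study asked how CD4+ T cells of healthy and lupus-prone mice respond to anti-CD45RB, an antibody that promotes transplant tolerance. There were 12 female mice, 3 in each of 4 groups, and each mouse gave 1 library. The groups were C57BL/6 (B6; C57BL/6J in the methods) mice left untreated, B6 mice given anti-CD45RB, SLE123 mice left untreated and SLE123 mice given anti-CD45RB. SLE123 mice are B6 mice that carry the Sle1, Sle2 and Sle3 lupus susceptibility regions of the NZM2410 strain, on chromosomes 1, 4 and 7. Treated mice received 100 ug of the antibody clone MB23G2 in each of 5 injections between day 0 and day 7, and the untreated groups are not described as receiving a control antibody. The mice were 9 weeks old by the study's methods and 9 to 12 weeks old by a figure legend. The cells were isolated by negative magnetic selection, which removes other cells and leaves CD4+ T cells behind. A later split into CD25+ and CD25- cells is stated in the methods, but the sample names carry no such fraction.

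B cells recognise antigen through the B cell receptor, an immunoglobulin that signals through the CD79A and CD79B chains. EBF1 and PAX5 are the transcription factors that set and hold the B cell lineage, and CD20, CD22, BLK, BANK1 and FCRLA act at or beneath the B cell surface. CD4+ T cells are not known for these genes, whose transcripts are widely used as signs of B cells in a preparation, although single members can be detected in other leukocytes.

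The members lie on 7 chromosomes of the mouse genome (GRCm38, GENCODE M21), and all 9 are protein-coding. Cd79a, at chr7:24897381-24902197 on the plus strand, and Cd22, at chr7:30865402-30880342 on the minus strand, are on chromosome 7. Cd79b, at chr11:106311341-106314762 on the minus strand, and Ebf1, at chr11:44617317-45008091 on the plus strand, are on chromosome 11. The others are Fcrla at chr1:170917576-170927583, Bank1 at chr3:136053363-136326066, Pax5 at chr4:44524757-44710487, Blk at chr14:63372836-63417037 and Ms4a1 at chr19:11249675-11266241, each on the minus strand. Fcrla, Pax5, Cd79a and Cd22 therefore share a chromosome with a Sle region, and whether they lie inside its bounds was not examined. Exons of Cd22 overlap those of the antisense gene Gm29439 over 479 bases, and Gm29439 was listed at 0 in every library. Exons of Pax5 overlap those of the antisense gene Gm12462 over 125 bases, which was at 0 to 0.0594 FPKM, and those of 5730488B01Rik over 636 bases, which was not analysed here. The strand setting of the counting is not given in the sources used here, so reads of such pairs cannot be told apart.

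The starts of Cd79a and Cd22 are shown, chosen by their responses to treatment in B6 mice. Cd79a had the largest change of the tested members on the log2(FPKM + 1) scale, and Cd22 was the one with no called change. That scale understates low genes, and by ratio of means Ms4a1 rose more, 10.2-fold against 4.77-fold for Cd79a. Each window runs from 250 bases before to 50 bases after the RefSeq start site (GRCm38.p6), written 5′ to 3′ along the gene. Cd79a is at chr7:24897247-24897546, plus strand, and Cd22 at chr7:30878979-30879278, minus strand. Capitals mark an exact match to the letters searched for EBF.
Cd79a: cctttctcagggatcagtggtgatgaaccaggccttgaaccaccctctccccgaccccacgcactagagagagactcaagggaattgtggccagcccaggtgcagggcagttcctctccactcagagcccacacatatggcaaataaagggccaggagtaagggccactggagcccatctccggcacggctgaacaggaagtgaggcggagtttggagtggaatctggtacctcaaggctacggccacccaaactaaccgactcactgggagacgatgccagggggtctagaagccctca
Cd22: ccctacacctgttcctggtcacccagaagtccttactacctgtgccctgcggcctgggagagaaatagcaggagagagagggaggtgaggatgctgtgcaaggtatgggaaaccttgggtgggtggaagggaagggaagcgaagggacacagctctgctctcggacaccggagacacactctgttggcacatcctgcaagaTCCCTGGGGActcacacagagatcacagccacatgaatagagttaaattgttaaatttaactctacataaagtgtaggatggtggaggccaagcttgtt
The motifs of B cell factors were searched on both strands: TCCCNNGGGA for EBF, the octamer ATGCAAAT, and GAGGAAGT for PU.1. RefSeq windows were held for 6 members, and the only match was the EBF motif of Cd22, at 49 bases before the start, where no other searched motif overlapped it. Of all 32851 windows of the same length, 0.904% held the EBF letters, 1.73% the octamer and 3.20% the PU.1 letters. These matches describe the letters of the windows alone. Only exact letters were searched, so sites that depart from them were missed, and a window without a match is not shown to lack a site. Cd79b, Ms4a1 and Blk are named only.

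The libraries held 13563066 to 23641766 fragments, with a median of 16827909, and a transcript of 2000 bases with 3 fragments would be listed at 0.0634 to 0.111 FPKM. The T cell label was borne out by 9 T cell markers, whose summed level was 2447 to 2663 FPKM in B6 libraries and 2010 to 2613 FPKM in SLE123 libraries. Untreated SLE123 replicate 3 stood apart, with the lowest T cell sum and the highest level of all 9 B cell members. The liver genes Alb, Apoa1 and Apoa2 summed to 35.6 to 42.1 FPKM in every B6 library and to 39.5 FPKM in treated SLE123 replicate 1, but to at most 0.368 FPKM in the other SLE123 libraries. Nothing in the sources states that the mice of a group came from separate litters or days, so p-values measure the spread between these samples.

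Transcripts of the B cell receptor chains were detected in all 12 libraries. Cd79a, the receptor's alpha signalling chain, was at 2.08, 2.31 and 2.26 FPKM in untreated B6 mice (replicates 3, 4 and 5) and at 11.4, 12 and 8.32 FPKM in treated B6 mice (replicates 1, 3 and 5). It was at 25.3, 40.0 and 87.2 FPKM in untreated SLE123 mice and at 13.3, 21.1 and 22.1 FPKM in treated SLE123 mice (replicates 1, 2 and 3 of each). None of the 4 groups overlapped another for Cd79a, and their order was untreated B6, treated B6, treated SLE123 and untreated SLE123. Cd79b, the partner chain, was at 1.82, 1.12 and 1.87 FPKM in untreated B6 mice and at 7.37, 9.22 and 7.56 FPKM in treated B6 mice. Without treatment Cd79b in SLE123 mice was at 23.1, 30.7 and 73.7 FPKM, and it was at 13.7, 25.1 and 23.7 FPKM with treatment. The order of the means was that of Cd79a, but the SLE123 groups overlapped.

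Ms4a1, which encodes CD20, was close to the detection floor in untreated B6 mice, at 0.262, 0.162 and 0.222 FPKM from 9 to 13 fragments. It was at 2.21, 2.76 and 1.60 FPKM in treated B6 mice, at 3.50, 4.98 and 22.6 FPKM in untreated SLE123 mice and at 2.41, 2.93 and 2.75 FPKM in treated SLE123 mice. Treated mice of the 2 strains overlapped for Ms4a1, while untreated SLE123 mice were all higher than any other mouse. Cd22, an inhibitory coreceptor that binds sialic acids, followed another order. It was at 1.70, 2.28 and 2.31 FPKM in untreated B6 mice, from 109 to 164 fragments, and at 1.93, 2.20 and 1.27 FPKM in treated B6 mice. It was at 5.18, 3.62 and 7.48 FPKM in untreated SLE123 mice and at 4.18, 3.81 and 3.99 FPKM in treated SLE123 mice. Cd22 thus separated the strains in every mouse, and within each strain the treated and untreated mice overlapped.

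The transcription factors were scarce in all groups. Pax5, which commits cells to the B lineage, was at 0.269, 0.137 and 0.231 FPKM in untreated B6 mice, from 4 to 7 fragments, and at 1.23, 1.44 and 1.47 FPKM in treated B6 mice. Untreated SLE123 mice had Pax5 at 0.936, 1.23 and 5.81 FPKM and treated ones at 0.772, 0.821 and 0.709 FPKM. All treated SLE123 mice lay below all treated B6 mice for Pax5, the reverse of the order seen for Cd79a. Ebf1, which acts upstream of Pax5 in early B cells, was represented by 1 to 3 fragments in each untreated B6 mouse, at or below 0.0312 FPKM. It was at 0.259, 0.398 and 0.308 FPKM in treated B6 mice, from 21 to 39 fragments. Its levels were 0.263, 0.447 and 1.22 FPKM in untreated SLE123 mice and 0.238, 0.177 and 0.0912 FPKM in treated SLE123 mice. Like Pax5, Ebf1 was lower in every treated SLE123 mouse than in any treated B6 mouse.

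Among the signalling members, Blk and Bank1 encode a Src family kinase and a scaffold protein of the B cell receptor pathway. Blk was at 0.276, 0.357 and 0.377 FPKM in untreated B6 mice and at 2.26, 1.95 and 2.04 FPKM in treated B6 mice. It was at 2.25, 3.29 and 15.9 FPKM in untreated SLE123 mice and at 0.936, 1.5 and 1.43 FPKM in treated SLE123 mice. Blk shared with Pax5 and Ebf1 the lower level in treated SLE123 than in treated B6 mice. Bank1 had a narrow range outside untreated SLE123 mice, from 0.562 to 0.802 FPKM in untreated B6, from 1.12 to 1.16 FPKM in treated B6 and from 1.36 to 1.54 FPKM in treated SLE123 mice. In untreated SLE123 mice Bank1 was at 1.92, 1.99 and 6.99 FPKM.

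Fcrla, an Fc receptor-like protein kept inside B cells, had the largest ratio of means between the untreated strains. It was at 0.185, 0.165 and 0.148 FPKM in untreated B6 mice, from 4 to 5 fragments, and at 1.14, 1.24 and 0.921 FPKM in treated B6 mice. It was at 5.12, 6.63 and 19.7 FPKM in untreated SLE123 mice and at 3.61, 7.08 and 6.01 FPKM in treated SLE123 mice. The lowest SLE123 mouse thus exceeded the highest B6 mouse for Fcrla. Untreated SLE123 replicate 3 was the highest mouse for every member, from 1.45 times the next mouse for Cd22 to 4.83 times for Blk.

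**Figure D1:**
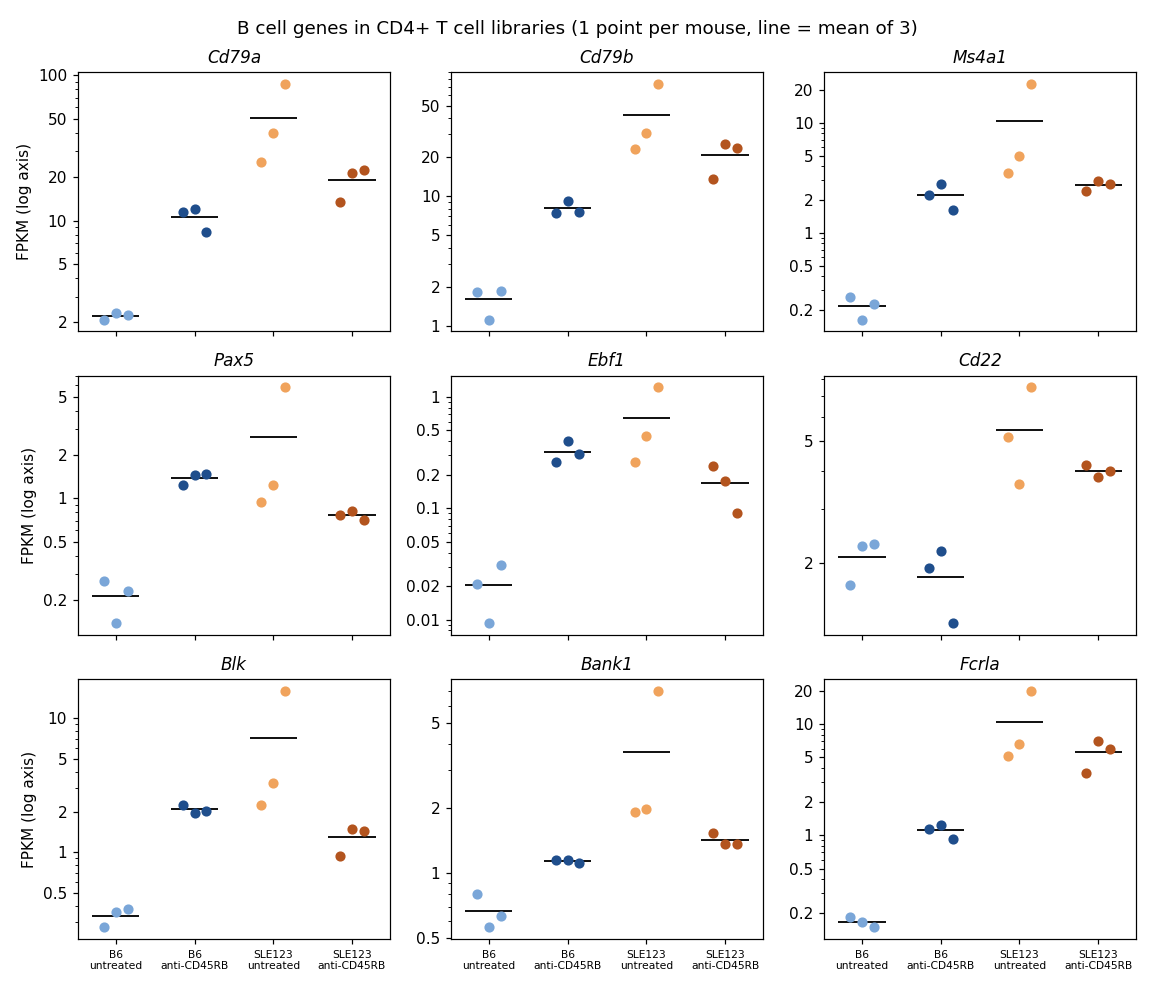
FPKM of the 9 B cell genes on a log axis, 1 point per mouse, with a line at the mean of the 3 mice of each group. Cd79a rises from 2.08 FPKM in the lowest untreated B6 mouse to 87.2 FPKM in untreated SLE123 replicate 3, and Cd22 is the panel in which treated and untreated B6 mice overlap.

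In B6 mice, B cell transcripts were higher after anti-CD45RB. Of the 8 members tested, 7 rose and none fell, whereas 8.74% of all 13115 genes tested were called higher (limma on log2(FPKM + 1), with a Benjamini-Hochberg adjusted p under 0.05 over all genes). Mean Cd79a was 10.6 ± 1.98 FPKM in treated and 2.22 ± 0.120 FPKM in untreated B6 mice (SD, n = 3 each). This is a 4.77-fold ratio of means and a log2 change of 1.83 ± 0.13 (SE; limma adjusted p = 0.000752). Cd79b rose 5.02-fold, with a log2 change of 1.81 ± 0.14 (limma adjusted p = 0.000992). Fold ratios here are ratios of FPKM means, while log2 changes are on the log2(FPKM + 1) scale, which understates the change of low genes.

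Ms4a1 rose 10.2-fold between means, from 0.215 ± 0.0505 to 2.19 ± 0.578 FPKM, with a log2 change of 1.38 ± 0.14 (limma adjusted p = 0.00233). The lineage factor Pax5 rose 6.51-fold, with a log2 change of 0.97 ± 0.09 (limma adjusted p = 0.00151). Blk rose 6.2-fold with a log2 change of 1.21 ± 0.08 (limma adjusted p = 0.000653), and Fcrla rose 6.64-fold with a log2 change of 0.85 ± 0.09 (limma adjusted p = 0.00239). Bank1 changed least of those called, 1.71-fold, with a log2 change of 0.37 ± 0.08 (limma adjusted p = 0.0322). Cd22 was at 1.8 ± 0.477 FPKM in treated and 2.10 ± 0.345 FPKM in untreated B6 mice, a log2 difference of -0.15 ± 0.15 that was not called (limma adjusted p = 0.517). Ebf1 was tested under other settings, with a log2 change of 0.37 when low genes were kept and of 0.75 on TPM, a scale with a fixed total per library (limma adjusted p = 0.0238 and 0.0124).

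Including Ebf1, 8 of 9 members were higher in every treated than in every untreated B6 mouse, which was true of 19.4% of all genes tested. The median log2 change was 1.09 over the 8 tested members and -0.0024 over all genes. In a fit that drew the spread from all 12 mice, only Cd79a and Cd79b were still called (limma adjusted p = 0.0112 and 0.0128). In bulk RNA, more cells of a type and more RNA per cell cannot be told apart.

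In SLE123 mice, every tested member had a lower mean after treatment, but no member passed the test. Only 5 of 13115 genes, or 0.0381%, were called in that comparison (limma), and 1369 genes had an unadjusted p under 0.05. Of the 8 members, 2 had an unadjusted p under 0.05, and limma's voom on the recovered fragments gave 1 such member and called none. Mean Cd79a was 18.8 ± 4.80 FPKM in treated and 50.8 ± 32.3 FPKM in untreated SLE123 mice (SD, n = 3 each). Its log2 difference was -1.23 ± 0.42 (SE; limma adjusted p = 0.466). The other differences ran from -0.32 ± 0.21 for Cd22 to -1.44 ± 0.57 for Blk, with limma adjusted p from 0.466 to 0.576 over the 8 members.

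The levels of 6 members, Cd79a, Ms4a1, Pax5, Ebf1, Blk and Bank1, were lower in every treated than in every untreated SLE123 mouse, which was true of 6.02% of all genes tested. Cd79b, Cd22 and Fcrla overlapped between the groups. The median log2 difference was -0.83 over the tested members and 0.04 over all genes. Without untreated SLE123 replicate 3 the differences shrank but stayed below 0, from -0.76 for Cd79a to -0.10 for Fcrla, and again none was called. That library also had the lowest summed T cell markers and the highest plasma cell and class II sums.

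The treatment responses of the strains differed for the receptor chains. In a fit over all 12 mice, the response in SLE123 minus that in B6 was -3.07 ± 0.49 for Cd79a on the log2 scale (SE; limma adjusted p = 0.00763) and -2.67 ± 0.50 for Cd79b (limma adjusted p = 0.0159). Blk was the third member called, at -2.65 ± 0.64 (limma adjusted p = 0.0473). The 3 members called lower compare with 2.38% of all genes tested. Ms4a1 stood just outside, at -2.60 ± 0.65 (limma adjusted p = 0.0522), and Cd22 had the smallest value, -0.17 ± 0.28 (limma adjusted p = 0.742).

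This result depended on single libraries and on the method. Without untreated SLE123 replicate 3, 6 members were called, and without untreated SLE123 replicate 1 it was 7. Over all 13115 genes, the 312 called lower became 294 without that replicate 3 and 936 without that replicate 1. The rise to 7 members thus came with a rise in calls over all genes. Without untreated B6 replicate 4 only Cd79a was called (limma adjusted p = 0.0251), and with limma's voom on the recovered fragments none was, Cd79a having a log2 value of -3.54 and an adjusted p of 0.0572.

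**Figure D2:**
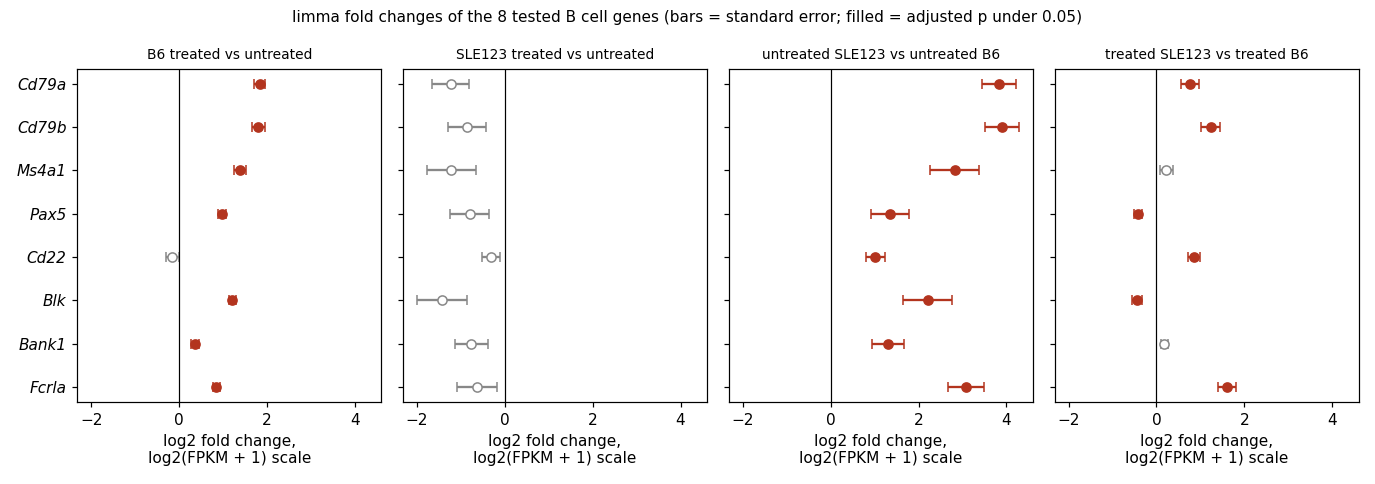
limma log2 fold changes with standard errors for the 8 tested members in 4 comparisons, on the log2(FPKM + 1) scale, with filled points where the adjusted p is under 0.05. Members other than Cd22 lie right of 0 in B6 after treatment, all 8 lie left of 0 in SLE123 with open points, and Pax5 and Blk are left of 0 between treated SLE123 and treated B6 mice.

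Between the untreated strains, all 8 tested members were higher in SLE123 mice. The background was 22.8% of all genes called higher (limma). The receptor chains differed most on the log2(FPKM + 1) scale, by 3.90 ± 0.39 for Cd79b (limma adjusted p = 0.000293) and 3.83 ± 0.38 for Cd79a (limma adjusted p = 0.000317). That scale understates low genes. By ratio of means Fcrla and Ms4a1 differed more, the latter 48.1-fold against 26.5-fold for Cd79b. Mean Cd79b was 42.5 ± 27.3 FPKM in SLE123 and 1.60 ± 0.418 FPKM in B6 mice (SD, n = 3 each). Fcrla differed by 3.09 ± 0.41 (limma adjusted p = 0.00118), and its ratio of means was 63.3-fold. Ms4a1 differed by 2.82 ± 0.55 and Blk by 2.21 ± 0.55 (limma adjusted p = 0.0061 and 0.0161). Pax5, Bank1 and Cd22 had the smallest differences, 1.35, 1.31 and 1.01, with limma adjusted p of 0.0414, 0.0252 and 0.00899.

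All 9 members, Ebf1 included, were higher in every untreated SLE123 than in every untreated B6 mouse, against 29.1% of all genes tested. Leaving out untreated SLE123 replicate 3 lowered the differences, to 3.35 for Cd79a and 2.09 for Ms4a1, and all 8 were called. Pax5 then differed by 0.78 and Blk by 1.48. Without untreated B6 replicate 3 or replicate 4, the calls of Pax5, Blk and Bank1 were lost and 5 members were called. Over all genes, the 2990 called higher became 2674 without untreated SLE123 replicate 3, and 2296 and 2300 without these B6 mice.

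Between the treated strains, 4 of the 8 tested members were called higher in SLE123 mice and 2 lower (limma). Over all genes tested the shares were 29.6% higher and 22.5% lower, so the lower count was near the background. The higher members were Cd79a, Cd79b, Cd22 and Fcrla, and the lower ones Pax5 and Blk. Fcrla had the largest difference, 1.61 ± 0.20 on the log2 scale (SE; limma adjusted p = 0.000772), from a mean of 1.10 ± 0.162 FPKM in B6 to 5.57 ± 1.78 FPKM in SLE123 mice (SD, n = 3 each). Cd79b differed by 1.23 ± 0.22, Cd22 by 0.85 ± 0.13 and Cd79a by 0.76 ± 0.21 (limma adjusted p = 0.0034, 0.00188 and 0.0201). Pax5 was 1.8-fold lower between means, with a log2 difference of -0.43 ± 0.09 (limma adjusted p = 0.00615). Blk was 1.62-fold lower, with a log2 difference of -0.44 ± 0.12 (limma adjusted p = 0.0197).

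Ms4a1 and Bank1 were not called, with log2 differences of 0.23 ± 0.14 and 0.18 ± 0.08 (limma adjusted p = 0.221 and 0.101). By mouse, 5 members were higher without overlap, against 34.7% of all genes tested, and 3 were lower without overlap, against 27.1%. The lower 3 were Pax5, Ebf1 and Blk. With the spread drawn from all 12 mice, Cd79b, Cd22 and Fcrla were still called, while Pax5 had a limma adjusted p of 0.36, Blk of 0.467 and Cd79a of 0.102.

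The proportions of the members to each other were described by dividing each level by that of Cd79a in the same mouse. Cd79b stayed within 0.484 to 1.19 of Cd79a over the 12 mice. Cd22 did not, with a ratio of 0.816 to 1.02 in untreated B6 mice, 0.153 to 0.183 in treated B6 mice and 0.0858 to 0.314 in SLE123 mice. Bank1 was likewise highest against Cd79a in untreated B6 mice, at 0.243 to 0.385, compared with 0.0498 to 0.134 in all other mice.

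Fcrla separated the strains, at 0.0655 to 0.111 of Cd79a in B6 and 0.166 to 0.336 in SLE123 mice. For Pax5 the ratios of the strains overlapped, from 0.0591 to 0.177 in B6 and from 0.0306 to 0.0667 in SLE123 mice. Blk was at 0.163 to 0.245 of Cd79a in treated B6 and 0.0648 to 0.0712 in treated SLE123 mice. Some genes of antibody-secreting cells separated the strains too. Jchain, which joins secreted IgM and IgA, was at 5.17 to 20.7 times Cd79a in B6 and 48.2 to 71.9 times in SLE123 mice. The kappa constant gene Igkc was at 72.2 to 238 times Cd79a in B6 and 999 to 1645 times in SLE123 mice. The plasma cell receptor gene Tnfrsf17 overlapped, at 0.0175 to 0.147 of Cd79a in B6 and 0.141 to 0.23 in SLE123 mice. It rested on 1 to 5 fragments in each B6 library, and only untreated B6 replicate 4, with 5, reached the SLE123 range.

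**Figure D3:**
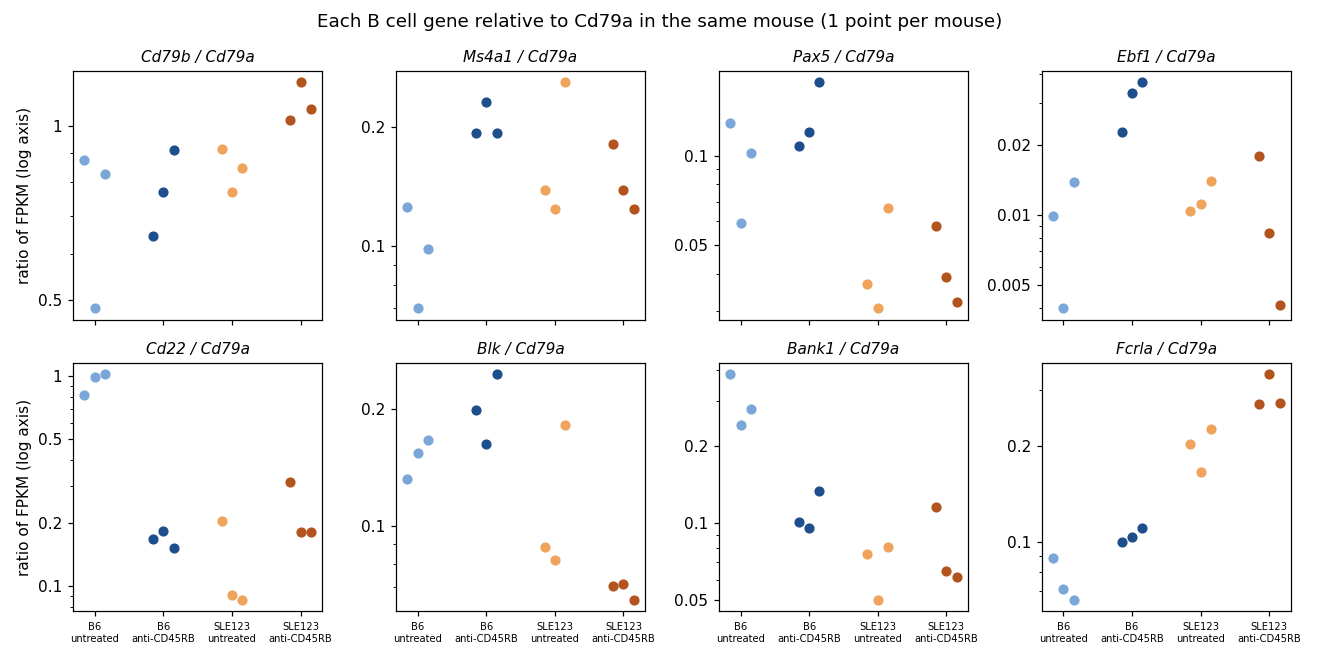
Ratio of the FPKM of each other member to that of Cd79a in the same mouse, on log axes, 1 point per mouse. Cd22 and Bank1 are highest in untreated B6 mice, and Fcrla is higher in all SLE123 mice (0.166 to 0.336) than in all B6 mice (0.0655 to 0.111).

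As a single figure per mouse, the mean of log2(FPKM + 1) over the 9 members was 0.74 ± 0.04 in untreated B6, 1.70 ± 0.11 in treated B6, 2.12 ± 0.15 in treated SLE123 and 2.98 ± 0.86 in untreated SLE123 mice (SD, n = 3 each). Their summed level was 7.11 to 8.08, 24.6 to 32.3, 40.7 to 63.9 and 67.6 to 241 FPKM in the same order, with no overlap between groups. Set against the T cell gene Cd3e, Cd79a was at 7.03 to 7.58 FPKM per 1000 FPKM of Cd3e in untreated B6 mice and at 29.8 to 41.9 in treated B6 mice. It was at 37.1 to 61.4 in treated and 67.1 to 269 in untreated SLE123 mice. On this measure the treated mice of the 2 strains overlapped.

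Other B cell genes were taken from 6 lists that cover the receptor and its coreceptors, signalling, transcription factors, survival and surface receptors, germinal centre and marginal zone genes, and MHC class II genes. Of their 55 genes, 54 were in the table and 47 were tested. In B6 mice 26 rose and 3 fell with treatment, against 8.74% and 6.12% of all genes tested, and in SLE123 mice none was called in either direction (limma), although 12 had an unadjusted p under 0.05. With voom on the recovered fragments none was called in SLE123 mice and 11 had such a p. Between the untreated strains 36 were higher and 6 lower in SLE123 mice, against 22.8% and 20.1% of all genes tested. Between the treated strains 21 were higher and 14 lower, against 29.6% and 22.5%, and the median log2 difference was 0.05 over the lists and 0.03 over all genes. The treatment response was lower in SLE123 than in B6 mice for 18 genes and higher for 1, against 2.38% and 1.27%.

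In the receptor and coreceptor list 2 of 7 tested genes rose in treated B6 mice and none fell. Cd81, a coreceptor component that T cells express too, was at 8.15 to 10.8 FPKM in all B6 mice. The heavy and light chain genes Ighm and Igkc were not called in B6 mice after treatment, at log2 changes of 0.41 and 1.40 (limma adjusted p = 0.122 and 0.0611). Both were higher in SLE123 than in B6 mice in either state, by 5.11 and 7.26 without treatment (limma adjusted p = 5.9e-05 and 3.29e-05).

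Among signalling genes, 8 of 11 rose in treated B6 mice. They included Plcg2, a phospholipase downstream of the receptor, by 1.46, Pik3ap1, an adaptor to PI3 kinase, by 0.74, and Blnk, the central adaptor of the receptor, by 0.61 on the log2 scale (limma adjusted p = 0.00075, 0.00653 and 0.0272). Prkcb and Dapp1, which T cells also use, were abundant in every library and were not called in B6 mice after treatment. Of the transcription factors, 5 of 9 rose in B6 mice, among them Spi1, which encodes PU.1 and is also used by myeloid cells, by 1.61 (limma adjusted p = 0.00114). Pou2af1, Pou2f2, Bach2 and Ikzf3 were not called in that comparison, and Pou2af1, a coactivator at octamer sites, was higher in untreated SLE123 than in untreated B6 mice by 3.01 (limma adjusted p = 9.6e-05).

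Of the survival and surface receptors, Fcmr, the Fc receptor for IgM, rose in treated B6 mice by 2.40 and Ly6d by 1.66 on the log2 scale (limma adjusted p = 0.000274 and 0.0164). Cxcr5, the follicle homing receptor of B cells and follicular helper T cells, fell by 0.68 (limma adjusted p = 0.0453). Cd37, Tnfrsf13b and Fcrl1 were not called there. In the germinal centre and marginal zone list 4 of 8 genes were tested, and in B6 mice Cd9 rose by 0.51 while Dtx1, a regulator of Notch signalling, fell by 0.74 (limma adjusted p = 0.00077 and 0.000362). S1pr2 and Cd1d1 were not called. Dtx1 was the 1 gene of the 6 lists with a higher response in SLE123 mice.

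Of the class II genes, which present antigen in B cells, dendritic cells and macrophages, 6 of 7 rose in treated B6 mice. Cd74, the invariant chain, rose by 2.94, H2-Aa by 3.26, H2-Ab1 by 3.33 and H2-Eb1 by 3.44 on the log2 scale (limma adjusted p = 0.000653, 0.00222, 0.00077 and 0.00138). H2-Ob, part of the modulator H2-O, fell by 0.22 (limma adjusted p = 0.0272). Between the treated strains 5 of the 7 class II genes were called lower in SLE123 mice and 1 higher. The shares of all genes tested were 22.5% lower and 29.6% higher. The receptor chains Cd79a and Cd79b were higher in that comparison.

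Markers of other cells moved with the B cell members. In B6 mice after treatment, 2 of 3 tested monocyte and macrophage markers, 3 of 4 dendritic cell, 2 of 2 neutrophil, 2 of 3 NK cell and 4 of 4 erythroid and platelet markers rose, and 3 of 9 T cell markers fell (limma). Of all genes tested, 8.74% were called higher and 6.12% lower. Summed monocyte and macrophage markers were at 6.47 to 13.0 FPKM in untreated and 34.4 to 108 FPKM in treated B6 mice, and dendritic cell markers at 1.16 to 1.73 and 6.86 to 8.29 FPKM. Their part in the members' change was not tested. The neutrophil sum rose from 0.320 to 1.12 FPKM in untreated to 9.73 to 14.9 FPKM in treated B6 mice, and the erythroid and platelet sum from 1.79 to 2.65 to 14.9 to 15.8 FPKM.

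Between the strains the plasma cell list moved furthest with the members. Its sum was 62.4 to 83.5 FPKM in untreated B6, 100 to 205 in treated B6, 1091 to 1995 in treated SLE123 and 2012 to 5171 FPKM in untreated SLE123 mice. All 8 plasma cell genes were higher in SLE123 mice in both the untreated and the treated comparison, and 2 of 8 rose in treated B6 mice. Of all genes tested, 22.8%, 29.6% and 8.74% were called higher in these 3 comparisons (limma). Immunoglobulin genes took 0.0895 to 0.336% of fragments in B6 and 2.51 to 12.2% in SLE123 libraries. The NK cell sum went the other way between strains, at 43.3 to 86.1 FPKM in B6 and 15.5 to 28.6 FPKM in SLE123 mice. The share of these cells in the members' levels was not tested.

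**Figure D4:**
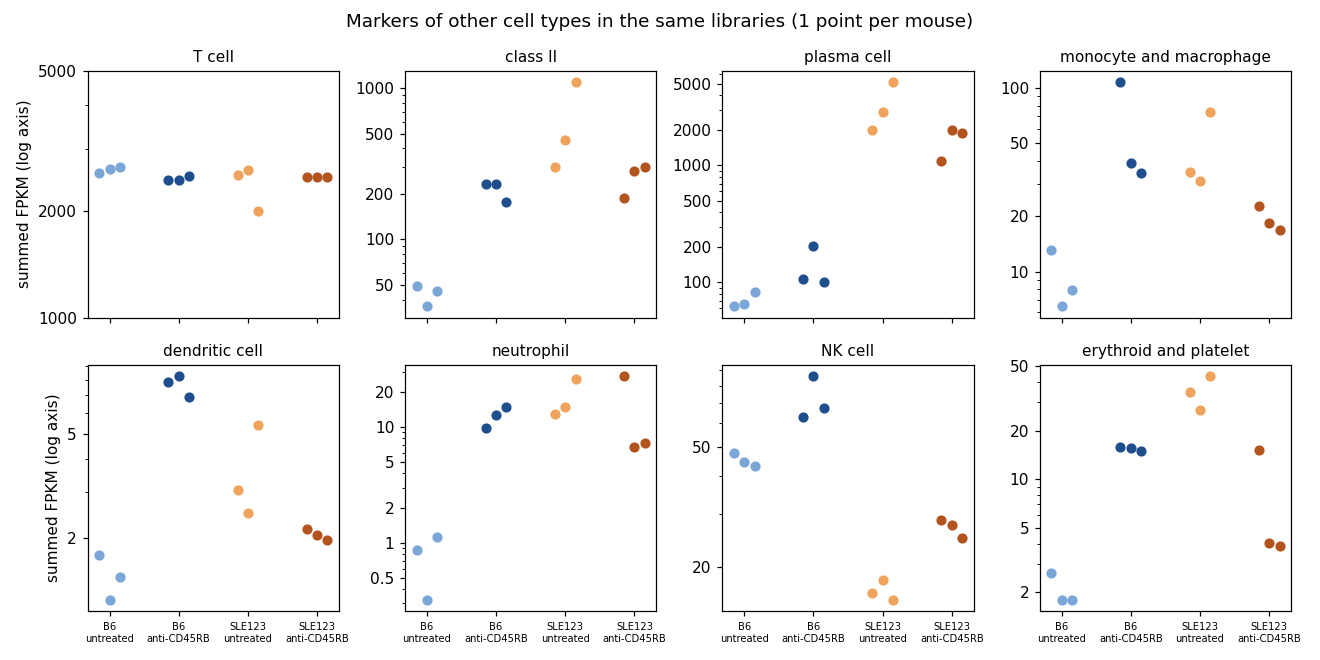
Summed FPKM of marker genes of other cell types in each library, on log axes, 1 point per mouse. The T cell sum lies between 2010 and 2663 FPKM, while the plasma cell sum runs from 62.4 FPKM in untreated B6 mice to 5171 FPKM in untreated SLE123 replicate 3.

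The genes whose levels were most like the members' mean were found by Spearman's rho over the 12 mice, which mixes group differences with differences between mice. The 10 highest were Anxa3, Jchain, Ltk, Slc39a1, Tmem176a, Tpd52, Swap70, Bsg, Chst1 and Fscn1, with rho from 0.979 to 0.993. In all, 16 named genes reached 0.979, ties were taken in alphabetical order, and 4 predicted genes or immunoglobulin segments at that level are not named. Pearson's r for Swap70, a signalling protein of B cells, was 0.996. When each mouse was taken as its deviation from the group mean, the 10 highest were Arhgap6, Btk, Hsp90b1, Ube2j1, Creb3l2, Tbc1d9, Sspn, Blnk, Eaf2 and Pafah1b3, with rho from 0.951 to 0.979, of 14 named genes that reached 0.951. Btk and Blnk belong to the receptor pathway and Hsp90b1 and Creb3l2 to protein secretion. Of the members, Cd79a, Cd79b and Ms4a1 followed the mean most closely over the 12 mice (rho 0.972 each) and Pax5 least (rho 0.545). Each member is itself part of that mean, so its rho is partly built in. All these values share libraries and depth and are descriptions.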

How the data were processed

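RNA-Seq libraries of purified CD4+ T cells from 12 mice were grouped by their titles. The authors deposited FPKM values per Ensembl gene. The submitters' processing notes name CASAVA 1.8, STAR and mm10, and the methods name DESeq2 for the authors' own tests, which was not run here. The counting program and its strand setting are not given in the sources used here. Symbols and coordinates were taken from GENCODE M21 (GRCm38), which matched 34490 of 35275 genes. For 100% of the 23230 genes above 0, values were whole multiples of 1 fragment (tolerance 0.002), so fragments per gene and library totals were recovered. Totals and floors of 3 fragments cover only the error of counting, because PCR copies of 1 molecule were not marked by molecular identifiers.

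Genes whose mean reached 0.5 FPKM were tested on log2(FPKM + 1) with limma 3.58.1 in R 4.3.3 (lmFit, then eBayes with a trend), with Benjamini-Hochberg adjustment and a threshold of 0.05. Pairs of groups were fitted on their 6 mice and the interaction on all 12. The method was run on simulated data with independent noise of equal spread in both groups. Groups of unequal spread, as seen for the members, were not covered by that check. Alternatives were another pseudocount, other filters, TPM computed here, values without immunoglobulin fragments, voom on the recovered fragments, eBayes without trend, a replicate block, 1 fit over all mice and leaving out each mouse. Treated and untreated mice share replicate numbers in their titles, in B6 only numbers 3 and 5, and whether these mark pairs is not stated. The members and lists were chosen with earlier results of these data known. The named genes were the 9 members, up to 4 called genes of each of 6 B cell lists by adjusted p, the 3 genes of each list with the highest mean FPKM, and the 10 genes most like the members' mean by each measure, and 2 genes that this rule names are not reported here. Jchain, Tnfrsf17 and Cd3e were named from the plasma cell and T cell marker lists after their values were seen. Promoter windows were taken from RefSeq.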

Additional observations from a re-analysis of the deposited data

Results flagged for a closer look

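The treatment response in SLE123 minus that in B6, on the log2 scale, passed the test of the difference itself (limma, adjusted p under 0.05) for 3 members. It was -3.07 for Cd79a, -2.67 for Cd79b and -2.65 for Blk. For Ebf1, every treated mouse was higher than every untreated mouse in B6 and lower in SLE123, and the difference of the responses was -0.82 with low genes kept (limma adjusted p = 0.11) and -1.34 on TPM (limma adjusted p = 0.0421).

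Among the other B cell genes named, the same difference was -4.05 for Fcmr, -2.48 for Ly6d, -1.90 for Plcg2, -2.42 for Spi1 and -0.77 for Pou2f2. The most negative values were those of the class II genes H2-Eb1, H2-Aa and H2-Ab1, at -4.84, -4.66 and -4.54. Cd74, at -3.92, came after Fcmr. Cd9 had a small negative value, -0.49, and Dtx1 a positive one, 0.92. Treated and untreated SLE123 mice were not separated by a called change for any of these genes.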

How the results depend on the processing

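The count of members called in B6 mice after treatment, 7, was 6 to 7 when any 1 mouse was left out, 0 with the replicate block and 2 with all 12 mice in 1 fit. In SLE123 mice it was 0 under every setting run. Between the untreated strains it was 8, with 5 when low genes were kept and 5 to 8 without 1 mouse. Between the treated strains it was 6, with 3 under the replicate block, 3 with all 12 mice in 1 fit, 4 with low genes kept and 4 to 6 without 1 mouse, the lowest without treated B6 replicate 5. For the interaction it was 3, with 6 at a pseudocount of 0.1, 6 on TPM, 2 with low genes kept, 2 without the trend, 0 with voom, 1 with the replicate block and 1 to 7 without 1 mouse. The cause of these changes was not tested. The mean member level moved to 1.05, -0.77 and 1.49 at a pseudocount of 0.1 and to 2.59, 1.27 and 2.89 on TPM in treated B6, untreated B6 and treated SLE123 mice. The leave-one-out values of that level, chosen after seeing the data, ran from 2.48 to 3.29 in untreated SLE123 mice, the lowest without replicate 3. In a group of 3 mice, leaving out 1 cannot move the mean by 1 SD, so no stability is read from these values. The interaction of Cd22 turned to 0.032 on TPM, and without 1 mouse it ran from -0.3812 to 0.0568, the latter without untreated SLE123 replicate 3. On TPM, Cd9 turned to -0.0231 between the untreated strains and Dtx1 to -0.0256 between the treated strains.

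The titles and methods do not state whether mice with the same replicate number were paired. Deviations of such mice from their group means correlated at -0.14 and -0.0936 in B6, where only numbers 3 and 5 are shared. In SLE123 they correlated at 0.137, -0.161 and 0.267. Mice with different numbers correlated at -0.1345 to 0.1998 in B6 and at -0.3267 to 0.2113 in SLE123. Deviations from a mean of 3 mice depend on each other, so these values cannot settle the pairing. Over all genes, the 1948 calls in B6 became 0 with the block, 815 with all 12 mice in 1 fit, 1134 with low genes kept and 675 to 1393 without 1 mouse. The 5 calls in SLE123 became 11 on TPM, 53 with all 12 mice, 3 with voom and 1 to 7 without 1 mouse. The 6836 calls between the treated strains became 3414 with the block, and the 478 of the interaction 34 with it and 205 to 2917 without 1 mouse. The 5621 calls between the untreated strains became 3672 to 6469 without 1 mouse. TPM moved the median of all genes to -0.35 between the untreated strains, -0.13 between the treated strains, 0.20 in SLE123 after treatment and 0.22 in the interaction. On TPM 2186 genes were higher and 6107 lower in untreated SLE123 than in untreated B6 mice, in place of 2990 and 2631, and 2611 and 4583 between the treated strains, in place of 3881 and 2955. Values without immunoglobulin fragments gave 3548 and 1833 between the untreated strains and 4491 and 2398 between the treated strains. Pax5, Ebf1 and Fcrla rested on at most 7 fragments per library in untreated B6 mice.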

Other observations

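Cr2, the complement receptor of mature B cells, was at 0.0356 to 0.0901 FPKM in untreated B6 and 0.175 to 0.45 FPKM in untreated SLE123 mice. Fcer2a, the low-affinity IgE receptor CD23, was listed at 0 in untreated B6 replicate 4 and in treated SLE123 replicate 3, and its highest level, 0.592 FPKM, was in treated B6 replicate 1. Sdc1, the plasma cell surface proteoglycan CD138, was at 0.295 to 1.16 FPKM in B6 and 8.35 to 36 FPKM in SLE123 mice. These 3 genes were named after their values were seen.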
